A study of Homo sapiens with 6 samples.

Results

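The interleukin-1 (IL1) family genes described here are the ligands IL1A, IL1B, IL1RN, IL18 and IL33 and the receptors IL1R1, IL1R2, IL1RAP, IL1RL1 and IL18R1. These 10 genes were taken by symbol from the 58735 genes of the count table. They were measured by RNA sequencing in MDA-MB-231 cells, an established triple-negative breast cancer (TNBC) line, and in Adriamycin-resistant (ADRr) cells made from that line. Adriamycin (ADR), or doxorubicin, is an anthracycline used against breast cancer. The 3 parent libraries carry the genotype label WT, and the 3 ADRr libraries (named ADR12) the genotype label ADR resistant. Per the study's methods, resistance was selected by stepwise exposure of the parent cells to rising ADR, followed by isolation of clones through limiting dilution. A difference between the groups may therefore belong to the clone sequenced or to the resistance, and these cannot be told apart. All libraries share 1 growth medium, DMEM with fetal bovine serum and antibiotics, and the labels do not say whether ADR was in it at harvest. The series record speaks of 3 time points, but no sample label gives one, and each group's libraries are taken here as its replicates. Nothing states that they came from separate cultures, so p-values measure only the spread between these libraries, which may be technical.

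IL1A and IL1B are the agonists of the family. Both bind the type 1 receptor IL1R1, which recruits the accessory chain IL1RAP and signals through MYD88, IRAK kinases and TRAF6 to NF-κB and MAP kinases. IL1RN encodes the antagonist that occupies IL1R1 without signalling, and IL1R2 is a decoy receptor that binds the agonists but lacks a signalling domain. IL1B and IL18 are made as precursors that caspase-1 cleaves within inflammasomes, whereas the IL1A precursor is itself active. IL18 acts through IL18R1, and IL33 through IL1RL1 (ST2) paired with IL1RAP. The values below are RNA levels and say nothing about cleavage, secretion or receptor protein.

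The sequence just before the start sites of IL1A, IL1B and IL1RN is shown because these genes lie in 1 cluster and were all higher in ADRr cells. The sequences are RefSeq's (GRCh38.p14), read on the strand of the gene. Except for the second IL1A stretch, they are cut where the first GENCODE 29 exon in the 250-base window begins. IL1A and IL1RN have further RefSeq starts inside the gene, and the start named here is the outermost RefSeq start of each. For IL1RN that start is chr2:113117971, while the annotated gene begins at chr2:113107214. All 250 bases of the IL1RN window therefore lie inside the annotated gene, not upstream of it. The second IL1A stretch, which holds the AP-1 match, lies inside an exon of GENCODE 29, whose IL1A start is 97 bases farther out than that of RefSeq. Capitals mark matches to the motifs searched.

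IL1A, chr2:112784591-112784743, minus strand, 250 to 98 bases before the start: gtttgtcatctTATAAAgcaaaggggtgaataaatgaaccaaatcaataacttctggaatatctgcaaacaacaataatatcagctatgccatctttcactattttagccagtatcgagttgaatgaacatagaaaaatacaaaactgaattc
IL1A, chr2:112784494-112784515, minus strand, the 22 bases before the start: cgaagaagacTGACTCAggctt
IL1B, chr2:112836904-112837029, minus strand, 250 to 125 bases before the start: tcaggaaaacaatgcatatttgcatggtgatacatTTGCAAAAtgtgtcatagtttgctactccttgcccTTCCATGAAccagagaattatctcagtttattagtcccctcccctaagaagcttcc
IL1RN, chr2:113117721-113117892, plus strand, 250 to 79 bases before the start: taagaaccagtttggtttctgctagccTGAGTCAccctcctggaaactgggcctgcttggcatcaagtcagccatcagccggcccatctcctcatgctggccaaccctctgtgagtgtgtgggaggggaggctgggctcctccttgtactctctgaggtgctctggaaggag

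The patterns were searched on both strands of the 250 bases before each start. The AP-1 pattern TGANTCA was found 12 to 6 bases before the outermost IL1A start and 223 to 217 bases before the outermost IL1RN start. Counted from the inner IL1A start, the same match lay 105 to 99 bases before it, with another at 55 to 49. The inner IL1RN starts had no AP-1 match, and the innermost had TATAAA 30 to 25 bases before it. The C/EBP pattern TTGCNNAA lay 215 to 208 bases before the IL1B start, and the STAT pattern TTCNNNGAA 180 to 172 bases before it. A TATAAA match lay 239 to 234 bases before the outermost IL1A start. Of all 35116 RefSeq promoters, 6.57% held the AP-1 pattern, 9.05% the C/EBP pattern, 6.57% the STAT pattern and 10.72% the TATAAA pattern, and 5.21% held the NF-κB consensus. The table held 19 promoters of 9 members, with AP-1 in 4 of them (IL1A with 2 starts, IL1RN and IL1RL1), STAT in 2 (IL1B and IL1R1), C/EBP in 1, TATAAA in 5 and the NF-κB consensus in 0. These are descriptions of letters in a short window, and binding was not measured.

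Total counts per library were 15983985 to 18272314, so the depth was similar in the 2 groups, and 3 counts correspond to 0.164 to 0.188 CPM, the count scaled to the library total. edgeR's quasi-likelihood test was fitted to the 15242 genes with enough counts, and a call required a Benjamini-Hochberg adjusted p no larger than 0.05 together with a fold change no smaller than 1.2. Across all tested genes, 29.2% were called higher and 29.6% lower in ADRr cells, with a median log2 fold change of -0.0061. Every ADRr library lay above every parent library in 34.5% of tested genes, and below every parent library in 34.7%. Any single call is read against this wide background.

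Of the 10 members, 6 had enough counts to be tested, namely IL1A, IL1B, IL1RN, IL1R1, IL1RAP and IL18. The first 5 were called higher in ADRr cells and IL18 lower, and in each of the 6 the libraries of the 2 groups did not overlap. The median log2 fold change of these 6 was 1.57. That is 5 of 6 called higher beside 29.2% of all tested genes, given as a description, since the members were chosen with earlier results known. IL1RN had enough counts to be tested only because of its ADRr libraries, so its call adds little to that count. With at least 10 counts required in every library, 4 members were called higher and 1 lower. IL1R2, IL1RL1, IL18R1 and IL33 were at or near 0 in both groups and were not tested.

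The agonists showed the largest differences of the family. IL1A (ENSG00000115008), on the minus strand of chr2:112773915-112784590 (GRCh38), had 341, 382 and 287 counts in parent replicates 1 to 3. In ADRr replicates 1 to 3, IL1A had 13999, 12048 and 14119 counts. No ADRr library came near the parent range, and the spread among ADRr libraries was narrow. Normalized to the library sizes, IL1A went from 347 ± 66.8 (SD, n = 3) to 13021 ± 378 counts (SD, n = 3). IL1A thus rose 37.6-fold, with a log2 fold change of 5.23 ± 0.085 (SE) and an edgeR adjusted p of 2.47e-22. Among all 15242 tested genes this was rank 24 by log2 fold change. In bulk RNA, more cells with a transcript and more transcript per cell cannot be told apart.

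IL1B (ENSG00000125538), the neighbour of IL1A in the same orientation, followed the same direction with a smaller change. It lies on the minus strand of chr2:112829751-112836903. IL1B had 319, 330 and 272 counts in the parent libraries, a level close to that of IL1A in raw counts. The ADRr libraries had 4510, 4092 and 4727 counts of IL1B. Normalized counts of IL1B were 316 ± 47.0 in parent cells and 4324 ± 73.7 in ADRr cells (SD, n = 3 each). The increase was 13.7-fold, with a log2 fold change of 3.78 ± 0.078 (SE), an edgeR adjusted p of 1.23e-20 and rank 77 among all tested genes.

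The replicate spread of both agonists was wider in parent cells. The coefficient of variation of normalized counts was 19.2% in parent and 2.90% in ADRr libraries for IL1A, and 14.9% and 1.71% for IL1B. In both genes parent replicate 3 was lowest and parent replicate 2 highest. Leaving out any 1 library kept the log2 fold change of IL1A between 5.09 and 5.37, and that of IL1B between 3.66 and 3.87.

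Per length, the deposited FPKM (reads scaled to gene length and library total) of IL1A was 9.36 ± 1.81 in parent cells and 352 ± 11.1 in ADRr cells (SD, n = 3 each). That moved IL1A from rank 4922 to rank 57 among the tested genes by mean FPKM. IL1B went from 5.85 ± 0.877 FPKM, rank 6749, to 80.2 ± 1.57 FPKM, rank 433.

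The share of IL1A in the summed FPKM of IL1A and IL1B was 60.9, 62.8 and 60.6% in parent replicates 1 to 3. In ADRr replicates 1 to 3 it was 81.9, 81.1 and 81.3%. Every ADRr library was above every parent library, and the means differed by 20.0 percentage points. The exact permutation test, two-sided, gave p = 0.1, the smallest value that 3 against 3 libraries allow, and 0.15 after Benjamini-Hochberg adjustment over the 3 balances tested. The level of this share depends on the gene length used. The FPKM length of IL1B is 3096 bases over all annotated exons, against 1631 bases in its longest coding transcript, while both lengths of IL1A are 2124 bases. With the longest coding transcript, the IL1A share was 45.6% ± 1.25 in parent and 69.8% ± 0.574 in ADRr cells (SD, n = 3 each).

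IL1RN, the antagonist, was also higher in ADRr cells but stayed at a low level. IL1RN (ENSG00000136689; plus strand, chr2:113107214-113134016) had 12, 5 and 9 counts in the parent libraries. The ADRr libraries had 39, 22 and 39 counts. The groups did not overlap, and ADRr replicate 2 was the lowest of its group. Normalized counts were 8.83 ± 3.47 in parent and 32.1 ± 7.93 in ADRr cells (SD, n = 3 each), a 3.60-fold increase with a log2 fold change of 1.85 ± 0.39 (SE) and an edgeR adjusted p of 0.000251. With only 26 counts over the parent libraries and 100 over the ADRr libraries, this estimate had the largest error of the tested members. A gene-level count does not separate the secreted from the intracellular antagonist transcripts.

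Relative to the agonists, the antagonist was scarcer in ADRr cells. The log2 ratio of IL1RN FPKM to the summed FPKM of IL1A and IL1B was -6.16, -7.54 and -6.33 in parent replicates 1 to 3. In ADRr replicates 1 to 3 this ratio was -9.39, -10.0 and -9.41. All ADRr values were below all parent values, with means of -9.61 ± 0.354 and -6.68 ± 0.753 (SD, n = 3 each) and a difference of -2.93. The exact permutation test, two-sided, gave p = 0.1, its smallest possible value, and 0.15 adjusted over the 3 balances. IL1RN itself was called higher, by a smaller fold than either agonist.

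The subunits of the signalling receptor were both higher in ADRr cells. IL1R1 (ENSG00000115594; plus strand, chr2:102064544-102179874), the ligand-binding chain, had 450, 486 and 479 counts in parent libraries. In ADRr libraries it had 907, 710 and 962 counts, and ADRr replicate 2 was the lowest of them. Normalized counts of IL1R1 were 484 ± 35.2 in parent and 834 ± 81.3 in ADRr cells (SD, n = 3 each), an increase of 1.72-fold with a log2 fold change of 0.79 ± 0.085 (SE) and an edgeR adjusted p of 3.26e-08. On the deposited FPKM scale the level was 3.92 ± 0.281 in parent and 6.76 ± 0.678 in ADRr cells.

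IL1RAP (ENSG00000196083; plus strand, chr3:190514051-190659750), the accessory chain that the IL1, IL33 and IL36 receptors share, had 326, 267 and 310 counts in parent libraries. Its ADRr libraries had 769, 727 and 823 counts, all above the parent libraries. Normalized counts rose from 308 ± 24.0 to 753 ± 19.4 (SD, n = 3 each), or 2.44-fold, with a log2 fold change of 1.29 ± 0.085 (SE) and an edgeR adjusted p of 7.00e-12. Its FPKM was 1.53 ± 0.123 in parent and 3.74 ± 0.098 in ADRr cells. The membrane-bound and soluble forms of IL1RAP are not separated by these counts. Small annotated genes within IL1RAP on the same strand had at most 10 counts in any library.

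The decoy receptor IL1R2 (ENSG00000115590; plus strand, chr2:101991844-102028544) was barely detected. It had 7, 5 and 1 counts in parent and 5, 4 and 5 counts in ADRr libraries. The sums were 13 and 14, a ratio of 1.04 in CPM with a 95% exact interval of 0.454 to 2.41. That interval covers counting error only, and these few counts do not exclude ratios within it. The share of IL1R2 in the FPKM of IL1R1 and IL1R2 was 3.46, 2.32 and 0.479% in parent and 1.25, 1.28 and 1.18% in ADRr libraries. The groups overlapped, the means differed by -0.845 percentage points and the exact permutation test, two-sided, gave p = 0.4. The difference was -0.158 without parent replicate 1 and -1.65 without parent replicate 3.

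IL18 was the only tested member with a lower level in ADRr cells. IL18 (ENSG00000150782; minus strand, chr11:112143251-112164117), a cytokine known for driving interferon-γ in lymphocytes, had 191, 227 and 255 counts in parent libraries. The ADRr libraries had 139, 103 and 140 counts, all below the lowest parent library. Normalized counts fell from 230 ± 29.1 to 123 ± 13.7 (SD, n = 3 each), a level 1.86-fold lower, with a log2 fold change of -0.89 ± 0.135 (SE) and an edgeR adjusted p of 4.22e-06. Its FPKM was 5.01 ± 0.620 in parent and 2.70 ± 0.306 in ADRr cells.

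The receptors for IL18 and IL33 were close to the detection limit. IL18R1 (ENSG00000115604; plus strand, chr2:102311529-102398775) had 4, 8 and 0 counts in parent and 1, 0 and 5 counts in ADRr libraries. The ratio of the sums, 6 over 12, was 0.484 in CPM with a 95% exact interval of 0.149 to 1.39. This interval also covers counting error only, not the spread between libraries. IL1RL1 (ENSG00000115602; plus strand, chr2:102311502-102352037) had a single count, in ADRr replicate 1. IL18R1 and IL1RL1 overlap on the same strand, so the few counts of either are uncertain. IL33 (ENSG00000137033; plus strand, chr9:6215786-6257983) had 0 counts in all 6 libraries, which allows up to 0.188 CPM in the shallowest of them.

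Ordered by deposited FPKM, parent cells had IL1A first, then IL1B and IL18, whose ranges overlapped, then IL1R1, IL1RAP and the near-absent genes. ADRr cells had IL1A, IL1B, IL1R1, IL1RAP, IL18, IL1RN and IL1R2 in that order, with no overlap between neighbours. Below those, IL18R1 and IL1RL1 did not differ beyond their spread. The parent order of the first 3 depended on the length used. Per kilobase of the longest coding transcript, IL18 had 11.6 ± 1.44, IL1B 11.2 ± 1.70 and IL1A 9.47 ± 1.84 CPM per kilobase in parent cells (SD, n = 3 each), with overlapping ranges of neighbours. In ADRr cells the order was the same with both lengths, IL1A having 361 ± 10.2 and IL1B 156 ± 2.11 CPM per kilobase.

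Of the members, 7 lie in a pair of gene clusters on chromosome 2. The receptor cluster spans chr2:101991844-102398775, 406.9 kb, with IL1R2, IL1R1, IL1RL1 and IL18R1 among 7 annotated genes. Its 3 other genes include IL1RL2, the IL36 receptor, which was called higher (log2 fold change 0.48 ± 0.152 SE, edgeR adjusted p = 0.00846). IL1R1-AS1 and the pseudogene FAM183DP had 0 counts. The nearest tested genes on either side, MAP4K4 at 1.02 and MFSD9 at 0.45 on the log2 fold change scale, were also called higher.

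The ligand cluster spans chr2:112773915-113134016, 360.1 kb, and holds IL1A, IL1B, IL1RN and 12 other annotated genes. None of these 12, which include the IL36 ligands and IL37, had enough counts to be tested, and 5 had 0 counts in every library. IL37 had 3, 1 and 1 counts in parent and 11, 7 and 3 counts in ADRr libraries. IL36B had counts in ADRr replicates 1 and 3 alone, with 7 and 12. IL36RN, the IL36 receptor antagonist, had 1, 0 and 0 counts in parent and 6, 3 and 4 counts in ADRr libraries. The flanking tested genes went in opposite directions, with CKAP2L called lower at -0.62 and PSD4 called higher at 1.01 on the log2 fold change scale.

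Outside the members, 12 further genes of the IL1 family were listed, and 4 were tested. IL1RAPL1, an IL1 receptor accessory-like protein known from neurons, was called higher (1.32 ± 0.095 SE on the log2 scale), as was IL1RL2. IL18BP, the secreted inhibitor of IL18, had 149, 184 and 178 counts in parent and 69, 78 and 79 counts in ADRr libraries. Its log2 fold change was -1.25 ± 0.157 (SE) with an edgeR adjusted p of 3.14e-07, so that IL18 and its inhibitor were both lower in ADRr cells. SIGIRR, a negative regulator of IL1 receptor signalling, was not called (-0.16, adjusted p = 0.67). IL18RAP, the accessory chain of the IL18 receptor, had 1 count in all.

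Among 20 genes of precursor processing and the inflammasome, 16 were tested. Of these, 7 were called higher and 2 lower, beside 29.2% higher and 29.6% lower over all tested genes. Their median log2 fold change was 0.34. TXNIP, a thioredoxin-binding protein that can also bind NLRP3, led them with 885, 893 and 962 counts in parent and 15881, 14197 and 15464 in ADRr libraries (log2 fold change 3.98 ± 0.054 SE). CASP1, the protease that matures IL1B and IL18, had 6, 11 and 9 counts in parent and 42, 34 and 43 in ADRr libraries. Its log2 fold change was 2.10 ± 0.359 (SE) with an edgeR adjusted p of 2.13e-05, from a low level of 0.138 FPKM to 0.598 FPKM. CASP1 had enough counts to be tested only because of its ADRr libraries. With at least 10 counts required in every library, 6 genes of this list were called higher and 2 lower. CASP4, which senses cytosolic lipopolysaccharide, rose by 1.19 on the log2 scale.

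The inflammasome sensors did not move alike. NLRP1 and AIM2 were called higher at 0.55 and 0.56 on the log2 fold change scale. The adaptor PYCARD (ASC) was at 0.04 (adjusted p = 0.86) and the sensor NLRP3 at 0.48 (adjusted p = 0.13) on the same scale, neither called, with NLRP3 at 29, 28 and 27 counts in parent and 47, 30 and 47 in ADRr libraries. CARD8, an inflammasome sensor, and GSDMD, the pore-forming protein through which mature IL1B leaves cells, were called lower at -0.69 and -0.63. GSDME, a further gasdermin of this list, and CASP8 were called higher at 0.53 and 0.58.

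In the signalling list, 24 of 26 genes were tested, with 6 called higher, 8 lower and a median log2 fold change of -0.05. Over all tested genes, 29.2% were called higher and 29.6% lower, so these counts do not set the list apart. PELI1, an E3 ubiquitin ligase that acts with IRAK proteins, had 115, 118 and 112 counts in parent and 476, 418 and 539 in ADRr libraries (log2 fold change 1.98 ± 0.110 SE). TRAF6, the ubiquitin ligase downstream of the IRAK kinases, was called higher at 0.69, and TOLLIP, an adaptor that restrains the receptor complex, at 0.55. MAP3K8 (TPL2), a kinase upstream of ERK, and MAPK14 (p38α) were called lower at -1.01 and -0.95. MYD88, the adaptor of the receptor, had 804, 717 and 824 counts in parent and 827, 728 and 838 in ADRr libraries and was not called (-0.05, adjusted p = 0.58).

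Of 30 genes known to be induced by IL1, 25 were tested. Of these, 16 were called higher and 6 lower, beside 29.2% higher and 29.6% lower over all tested genes. The median log2 fold change was 0.85 against -0.0061 over all tested genes. This is a description only, since the list was written with earlier results of these data known. MMP1 and CCL2 had enough counts to be tested only because of their ADRr libraries. CCL2 had 20, 10 and 6 counts in parent and 37, 42 and 48 in ADRr libraries. With at least 10 counts required in every library, 14 genes of this list were called higher and 6 lower. The collagenase MMP1 changed most, from 17, 2 and 15 counts in parent to 2077, 1812 and 2025 in ADRr libraries (log2 fold change 7.35 ± 0.161 SE, edgeR adjusted p = 2.95e-20). IL11 and IL6, cytokines that signal through gp130, rose by 2.31 and 1.97 on the log2 scale. IL6 had 1687, 1623 and 1674 counts in parent and 7160, 6300 and 7196 in ADRr libraries. Members of the same list went the other way. ZC3H12A (regnase-1), an RNase that degrades cytokine mRNAs, fell by 1.39 on the log2 scale, and TNFAIP2, a TNF-inducible protein, fell by 1.09. These genes are also induced by other signals, and their relation to the IL1 ligands was not tested.

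The labelled cell type was checked against marker genes. The 8 MDA-MB-231 markers summed to 5936 to 6074 CPM in parent and 5705 to 5726 CPM in ADRr libraries, and each was above 1 CPM. Of these, 5 were called lower (KRT8 from 10562 to 2634 mean normalized counts, then CAV1, KRT18, AXL and VIM between -1.30 and -0.56 on the log2 fold change scale), 2 higher (EGFR at 1.39 and CD44 at 0.80) and 1 was not called. Over all tested genes, 29.6% were called lower and 29.2% higher. Of the hormone receptors that TNBC lacks, PGR had 0 counts and ESR1 at most 1 count. ERBB2, which encodes HER2, had 1946, 1785 and 2303 counts in parent and 883, 882 and 905 in ADRr libraries. It was called lower. For HER2 the paper names the absence of amplification in TNBC, which RNA counts do not measure. Leukocytes are a classical source of IL1, and of 16 leukocyte markers 13 were under 1 CPM in every library, with PTPRC at 0 to 2 counts and TYROBP at 0. The summed level of the leukocyte list was 59.4 to 65.3 CPM in parent and 91.7 to 96.9 CPM in ADRr libraries, with LAPTM5 called higher (0.68 on the log2 scale), CSF1R called lower (-1.31) and CD14 not called. The 8 endothelial and fibroblast markers summed to 97.2 to 101 CPM in parent and 37.7 to 40.4 CPM in ADRr libraries, with 3 called lower, led by PDGFRB at -2.90 on the log2 fold change scale, 1 called higher (KDR at 1.07) and DCN at 0 counts. These calls too stand beside 29.6% lower and 29.2% higher over all tested genes. The part of these markers in the IL1 levels was not tested.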

How the data were processed

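RNA of 3 parent and 3 ADRr libraries of MDA-MB-231 cells was sequenced by the authors. The deposited tables hold counts per gene, without normalization, and FPKM. The submitters' processing notes name fastp, HISAT2 2.0.5, featureCounts 1.5.0-p3, DESeq2 1.20.0 and GRCh38, while whether counting used strand is not given in the sources used here. The authors' FPKM divide each count by the length of all annotated exons and by a read number 1.009 to 1.031 times the library total.

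The count analysis used edgeR 4.0.16 (R 4.3.3): filterByExpr, TMM, the quasi-likelihood test and Benjamini-Hochberg adjustment over 15242 genes, on which the script was tested with simulated data. Calls needed an adjusted p no larger than 0.05 and a fold no smaller than 1.2. Balances of FPKM were compared by exact permutation tests. Chi-square statistics showed no duplicate libraries. Named were all members, the 3 largest increases and 2 largest decreases called in each pathway list, genes within and beside runs of members, and the 3 genes most like IL1A. Other genes were named after their values were seen. Members, lists and tests were chosen with earlier results of these data known. Alternatives were DESeq2 1.42.0, limma 3.58.1 on log2(FPKM + 1 or 0.1), other scalings, filters and thresholds, a replicate block, leaving out each library and, added after seeing the data, transcript lengths. Promoters of 9 members matched RefSeq, and IL18 did not.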

Additional observations from a re-analysis of the deposited data

How the results depend on the processing

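Alternative values for the members, lists and balances numbered 280. Of these, 269 kept their direction and their side of the threshold, or stayed within 1.5 times for counts. Among fold changes and balances, 0 changed direction. Many of the 280 could not do so. Counts of called genes have no direction, and settings that changed only the threshold kept the main fold changes. Normalized counts per length repeat the FPKM balances almost by construction. With the fold threshold raised to 1.2 on the log2 scale, members called lower went to 0, other IL1 family genes called higher to 1, processing genes to 2 higher and 0 lower, signalling genes to 1 higher and 0 lower, and IL1-inducible genes to 8 higher and 1 lower. IL1R1 and IL18 lost their calls there by fold alone, their edgeR adjusted p staying as given, and all tested genes went to 1114 higher and 972 lower. With the adjusted p alone, 4 processing genes were called lower. The log2 fold change of IL1RN was 0.44 with limma on log2(FPKM + 1), a scale that understates low genes, and IL1RN could not be tested with at least 10 counts in every library. Replicate numbers did not pair the libraries (correlations of same-numbered libraries 0.0074, -0.021 and -0.046, and 1 of 6 libraries closest to its own number), and a replicate block kept 5 members higher and 1 lower. Depth limits IL1R2, IL18R1, IL1RL1 and IL33. Without the filter or with DESeq2, none of the first 3 was called, and IL33 has no counts.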

Other observations

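The 3 genes whose centred log2 CPM lay closest to those of IL1A over the 6 libraries were MUC4 (Euclidean distance 0.585), a membrane mucin, ARRDC4 (0.653), an arrestin-domain protein related to TXNIP, and GCKR (0.688), the regulator of glucokinase. MUC4 had 15, 10 and 11 counts in parent and 469, 524 and 574 counts in ADRr libraries. ARRDC4 had 11, 8 and 10 counts in parent and 409, 364 and 357 in ADRr libraries, and GCKR 5, 4 and 6 against 234, 220 and 237. All 3 had fewer counts than IL1A in every library, and with 2 groups of 3 libraries the distance mostly measures how similar the fold changes are.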
